A study of Homo sapiens with 16 samples.

Results

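This section describes 9 genes of the plasminogen activator system and of transforming growth factor beta (TGF-beta) signalling in 2 established human cell lines depleted of HNRNPH1. The genes are PLAU, PLAT, PLAUR, SERPINE2, TGFB1, TGFB2, TGFBR1, TGFBR2 and SMAD7. They were chosen by symbol among the 61906 genes listed in the tables of both lines, with earlier results of these data known, and 84 of the 251295 listed transcripts belong to them. All 9 passed the filter on low counts in both lines. HT-1080 derives from a fibrosarcoma, and HEK-293T from embryonic kidney, with the large T antigen of SV40 added. HNRNPH1 encodes an RNA-binding protein that takes part in splicing. Cells of each line received 20 nM of a small interfering RNA in Lipofectamine RNAi-Max. In the siHNRNPH1 groups it targeted HNRNPH1, and in the siNegative groups it was the negative control. RNA was taken from biological replicates after 48 h. Each of the 4 groups has 3 short-read RNA-seq libraries and 1 pool sequenced as full-length cDNA (IsoSeq). Both siRNA groups of a line share the transfection, so the comparison within a line is between the siRNAs.

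Urokinase (PLAU) and tissue plasminogen activator (PLAT) are secreted proteases that cut plasminogen into plasmin, which degrades fibrin and matrix proteins. The urokinase receptor (PLAUR) holds urokinase at the cell surface, and SERPINE2, also called protease nexin 1, is a serpin that inhibits thrombin and both activators. TGF-beta ligands are secreted in a latent form. Once active, they bring the type II receptor (TGFBR2) and the type I receptor (TGFBR1) together, and the type I receptor phosphorylates SMAD proteins that enter the nucleus. SMAD7 is an inhibitory SMAD whose gene is itself induced by the pathway. Plasmin can release TGF-beta from its latent complexes. Fibrosarcoma lines such as HT-1080 are widely used to study urokinase and invasion.

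Promoter sequences of RefSeq (GRCh38.p14), 300 bases each around a start and mostly before it, were held for 8 of the 9 genes, all but PLAT. They were searched on both strands for 4 elements that are known to bind factors of the TGF-beta and urokinase pathways. The palindromic SMAD element GTCTAGAC was found at none of the 8 genes and in 0.193% of all 34796 promoters. The shorter SMAD element CAGAC was found at 5 of the 8 genes (45.3% of all promoters), and the GC box GGGCGG at 5 of the 8 (44.9%). CAGAC and GTCTAGAC do not contain each other. The AP-1 element TGANTCA was found at 2 of the 8 genes, PLAUR and TGFBR2, and in 7.73% of all promoters. A gene is counted if any of its listed promoters holds the element, whereas each percentage is of single promoters. Counts and percentages are therefore not like for like, since some genes list several promoters. Both windows of 30 bases are shown, and the 7 letters of the element, the same in both, are given in capitals. The PLAUR window is chr19:43670337-43670366 on the minus strand, with the element beginning 186 bases before a start. The TGFBR2 window is chr3:30606584-30606613 on the plus strand, with the element beginning 6 bases before a start.
PLAUR: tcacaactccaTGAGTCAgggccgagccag
TGFBR2: ttgaagttgagTGAGTCActcgcgcgcacg
A match of letters is a description of the sequence and no evidence of a bound factor.

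The 9 genes lie on 8 chromosomes. In RefSeq's annotation of GRCh38.p14, PLAU (ENSG00000122861.16) spans chr10:73908832-73917494, PLAT (ENSG00000104368.19) chr8:42174718-42207565, PLAUR (ENSG00000011422.12) chr19:43646095-43670169 and SERPINE2 (ENSG00000135919.14) chr2:223975045-224039286. TGFB1 (ENSG00000105329.11) spans chr19:41330323-41353922, TGFB2 (ENSG00000092969.12) chr1:218345336-218444619, TGFBR1 (ENSG00000106799.14) chr9:99103647-99154192, TGFBR2 (ENSG00000163513.19) chr3:30606356-30694142 and SMAD7 (ENSG00000101665.10) chr18:48919853-48950965.

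The HEK-293T libraries held between 107.75 and 121.03 M (mega) expected counts and the HT-1080 libraries between 27.3 and 32.65 M. Replicate 1 of HEK-293T siHNRNPH1 stands apart from the other libraries of its group. Over genes, its chi-square per degree of freedom against replicates 2 and 3 was 740.1 and 773.4, against 8.456 between replicates 2 and 3 and 1.744 to 16.18 within the other groups. Results for HEK-293T are therefore given with and without it. In HEK-293T, HNRNPH1 fell from 1111 ± 8.76 to 334.9 ± 87.8 CPM (SD, n = 3), with edgeR's BH-adjusted p of 0.009392. Its log2 fold change there was -1.765 ± 0.202 (SE) with siHNRNPH1 replicate 1 and -1.585 ± 0.030 without it, so the decrease was larger with that library. In HT-1080 it fell from 619.2 ± 14.5 to 230.3 ± 1.61 CPM, with edgeR's BH-adjusted p of 6.761e-09. CPM is the expected count per mega counts of the library. It is not scaled for gene length, so levels are compared between samples and not between genes. Of 5 HT-1080 markers (CD44, CAV1, S100A4, MMP14 and COL6A3), the summed level was 5803 to 6969 CPM in HT-1080 and 10.01 to 11.86 CPM in HEK-293T, with S100A4 low in both. The 5 HEK-293T markers (LIN28B, PAX2, NEFL, NEFM and L1CAM) summed to 494.7 to 789.1 CPM in HEK-293T and 99.18 to 137.6 CPM in HT-1080, where NEFL made up most of the sum. NEFL (65.77 to 112.1 CPM in HEK-293T, 79.87 to 111.3 CPM in HT-1080) did not separate the lines. Neither did L1CAM (0.4861 to 1.681 CPM and 0.6309 to 1.267 CPM), whereas LIN28B, PAX2 and NEFM were higher in HEK-293T. No marker was at 0 in all libraries of a line. In bulk RNA, a change in the number of cells of a state and a change in RNA per cell cannot be told apart.

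The first comparison is between control cells, the siNegative libraries of the lines. All 9 genes were higher in HT-1080 than in HEK-293T, where 86.6% of the 19776 genes tested differed 40.8% higher in HT-1080 and 45.8% lower. The libraries of the lines did not overlap for any of the 9, against 88.8% of all genes without overlap. The ratio of the means ranged from 1.49 for TGFBR1 to 2655 for PLAU. Urokinase, PLAU, was at 1.107, 1.197 and 0.9089 CPM in HEK-293T and at 2832, 2856 and 2842 CPM in HT-1080. Its log2 difference was 11.63 ± 0.096 (SE; edgeR's BH-adjusted p = 4.908e-13). Its receptor PLAUR was the second of the 9 by this difference, at 4.483, 4.468 and 4.181 CPM in HEK-293T and 339.1, 368.5 and 346.0 CPM in HT-1080 (log2 difference 6.58 ± 0.064, BH-adjusted p = 7.947e-13 in edgeR). In HEK-293T, PLAU held between 96 and 139 expected counts per library, so statements about its response there rest on few counts.

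The other genes of the protease system differed less. PLAT was at 42.5, 43.56 and 42.63 CPM in HEK-293T and at 319.9, 311.9 and 314.7 CPM in HT-1080, 7.36-fold higher in the latter. The inhibitor SERPINE2 was at 17.94, 16.72 and 16.88 CPM against 49.96, 48.25 and 47.21 CPM, a 2.82-fold difference. Their log2 differences were 3.13 ± 0.042 and 1.75 ± 0.048, with BH-adjusted p of 3.292e-12 and 3.274e-10 in edgeR.

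Among the TGF-beta genes, both ligands and the type II receptor stood far higher in HT-1080 than in HEK-293T. TGFB1 was at 11.1, 10.55 and 10.66 CPM in HEK-293T and at 139.5, 146.1 and 142.5 CPM in HT-1080 (13.2-fold). TGFB2 was at 2.137, 1.867 and 1.95 CPM against 75.87, 63.16 and 74.22 CPM (35.8-fold). TGFBR2 was at 22.32, 22.45 and 22.62 CPM against 548.2, 459.3 and 557.7 CPM (23.2-fold). In HT-1080, replicate 2 of siNegative was the lowest of the 3 for TGFB2 and TGFBR2, as it was for TGFBR1, and this library also differed most from the others of its group over all genes (chi-square per degree of freedom 16.18 and 15.81, against 1.744 between replicates 1 and 3). TGFBR1 and SMAD7 were the genes closest between the lines. TGFBR1 was at 64.21, 64.69 and 64.87 CPM in HEK-293T and at 101.1, 89.06 and 97.88 CPM in HT-1080 (1.49-fold). SMAD7 was at 15.48, 14.87 and 14.28 CPM against 28.13, 26.66 and 28.11 CPM (1.86-fold). In edgeR the log2 differences were 3.98 ± 0.048 for TGFB1, 5.42 ± 0.087 for TGFB2, 4.79 ± 0.079 for TGFBR2, 0.83 ± 0.050 for TGFBR1 and 1.15 ± 0.050 for SMAD7, with BH-adjusted p of at most 1.176e-07. Cell line, counting table and depth cannot be told apart in this comparison, since the libraries of each line are in their own table and HEK-293T was sequenced 3.83 times as deeply by the median.

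**Figure D1:**
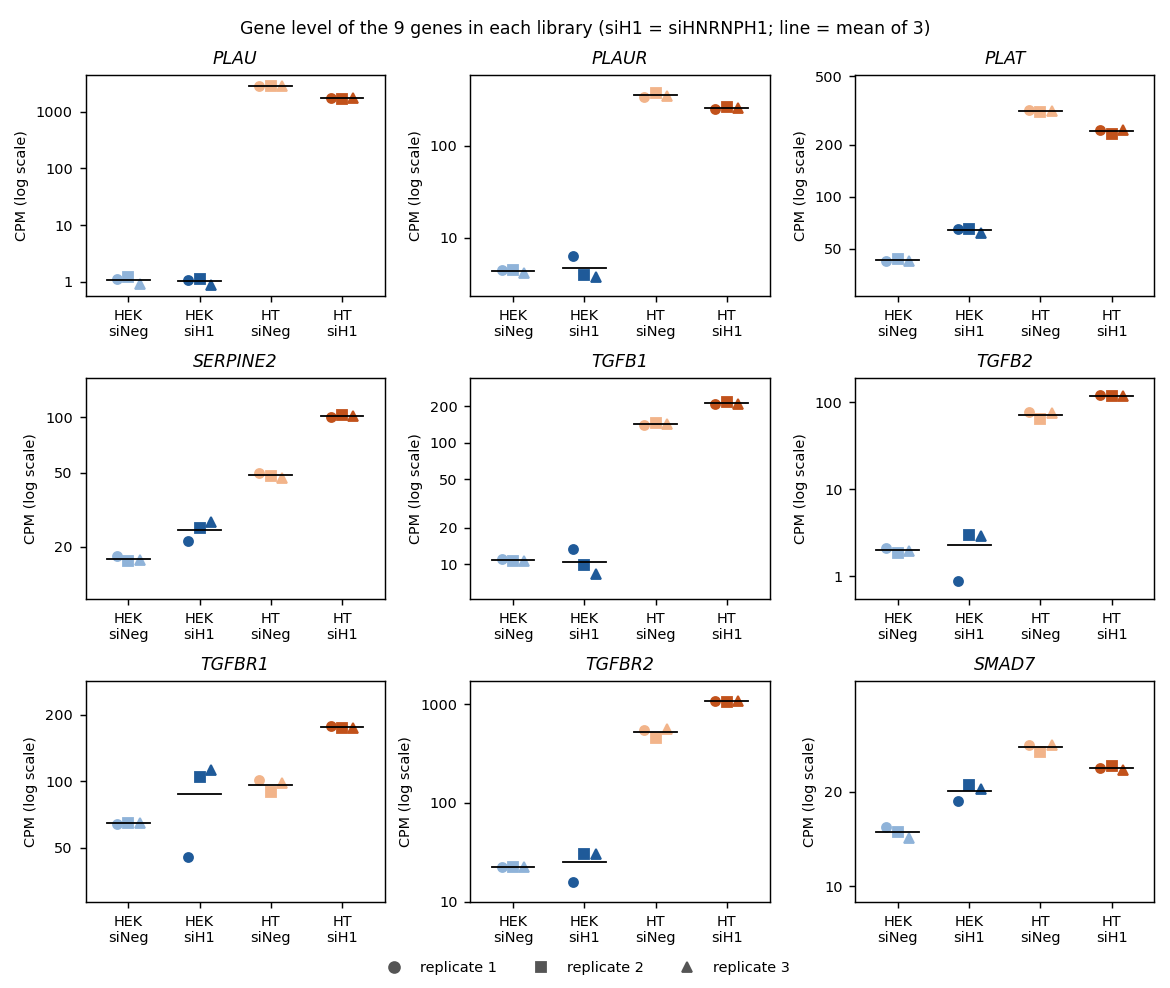
Level of each of the 9 genes in the 12 short-read libraries, as counts per mega counts of the library (CPM) on a log axis that differs between panels, by cell line and siRNA. Points are libraries, with the symbol giving the replicate, and lines are means of 3. In HT-1080 the siRNA groups separate for all 9 genes, and in HEK-293T the point of siHNRNPH1 replicate 1 lies below the siNegative libraries for TGFB2, TGFBR1 and TGFBR2.

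The next comparison is of siHNRNPH1 with siNegative within HT-1080. All 9 genes changed, with 5 higher and 4 lower after depletion, in a line where 65.3% of the 16145 genes tested changed (32.7% higher and 32.6% lower). A call is an edgeR BH-adjusted p under 0.05 over all genes tested. The genes that fell were both plasminogen activators, the urokinase receptor and SMAD7. Those that rose were SERPINE2, both ligands and both receptors. None of the 9 overlapped between siRNA groups, where 70.5% of all genes did not.

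Of the proteases, PLAU fell from 2832, 2856 and 2842 CPM to 1756, 1718 and 1747 CPM in HT-1080, a decrease of 38.8% that far exceeded the spread within either group. Its log2 fold change was -0.78 ± 0.044 (SE, n = 3 per group; edgeR's BH-adjusted p = 3.403e-07). PLAT fell from 319.9, 311.9 and 314.7 CPM to 244.1, 229.8 and 243.7 CPM (log2 fold change -0.47 ± 0.042, BH-adjusted p = 7.779e-06 in edgeR). The receptor PLAUR fell from 339.1, 368.5 and 346.0 CPM to 252.0, 262.2 and 252.3 CPM, a log2 fold change of -0.53 ± 0.049 (edgeR's BH-adjusted p = 9.389e-06). Against these decreases, the inhibitor SERPINE2 rose 2.10-fold. It stood at 49.96, 48.25 and 47.21 CPM in the control libraries and at 100.7, 102.1 and 101.9 CPM after siHNRNPH1. Its log2 fold change was 1.00 ± 0.044 (edgeR's BH-adjusted p = 7.048e-08). A noncoding gene, C10orf55, overlaps PLAU. It stood at 2.947 CPM in siNegative and 1.985 CPM in siHNRNPH1, and the strandedness of the counting is not given in the sources used here.

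Of the ligands, TGFB1 rose 1.48-fold in HT-1080, from 139.5, 146.1 and 142.5 CPM to 210.2, 215.1 and 209.4 CPM. TGFB2 rose 1.66-fold, from 75.87, 63.16 and 74.22 CPM to 119.3, 117.7 and 117.1 CPM. The log2 fold changes were 0.50 ± 0.042 and 0.66 ± 0.064, with edgeR's BH-adjusted p of 4.267e-06 and 1.126e-05. The antisense gene TGFB2-AS1 overlaps TGFB2 and stood at 0.355 and 0.866 CPM in the control and depleted groups, and the overlapping sense transcript TGFB2-OT1 at 4.641 and 4.389 CPM. These levels are small beside that of TGFB2, but without strand their reads cannot be told apart from it.

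Of the receptors, TGFBR2 rose 2.06-fold in HT-1080. The control libraries were at 548.2, 459.3 and 557.7 CPM, with replicate 2 lowest, and the depleted libraries at 1092, 1050 and 1077 CPM. TGFBR1 rose 1.82-fold, from 101.1, 89.06 and 97.88 CPM to 178.0, 173.2 and 174.5 CPM. Their log2 fold changes were 0.97 ± 0.069 and 0.80 ± 0.050, with edgeR's BH-adjusted p of 1.416e-06 and 6.24e-07. The inhibitor SMAD7 went the other way and by the smallest amount of the 9. It fell from 28.13, 26.66 and 28.11 CPM to 23.84, 24.04 and 23.39 CPM (log2 fold change -0.29 ± 0.052, edgeR's BH-adjusted p = 0.0008531). All 9 calls in HT-1080 were kept without each replicate in turn. With the spread estimated from all 12 libraries, which include the deviating HEK-293T library, PLAUR, TGFB1 and TGFB2 missed the threshold (edgeR's BH-adjusted p of 0.06676, 0.0569 and 0.1241), with the same directions.

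**Figure D2:**
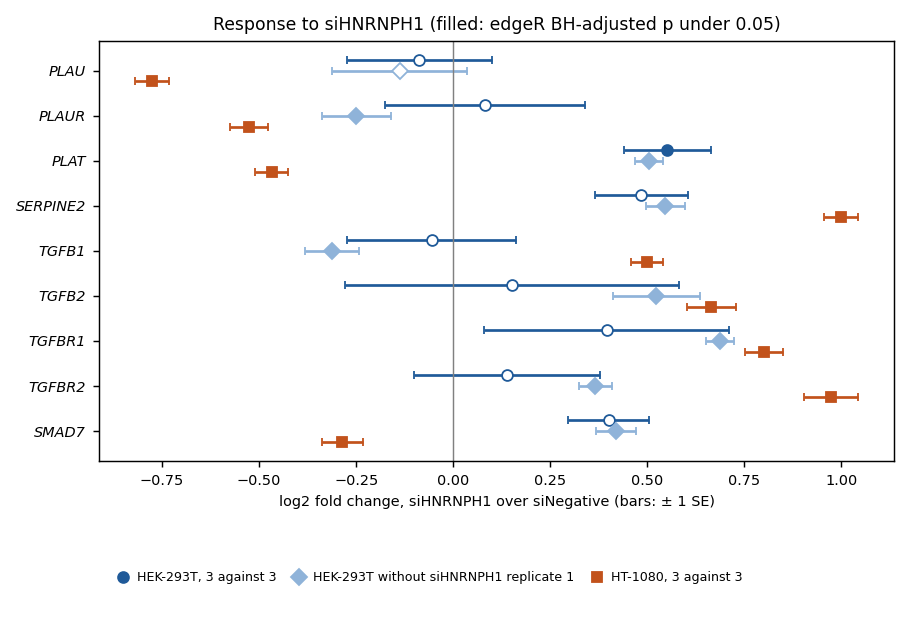
Log2 fold change of siHNRNPH1 over siNegative for the 9 genes with ± 1 standard error, in HEK-293T with 3 libraries per group, in HEK-293T without siHNRNPH1 replicate 1, and in HT-1080. Filled symbols have an edgeR BH-adjusted p under 0.05. PLAT and SMAD7 lie right of 0 in HEK-293T and left of 0 in HT-1080, while SERPINE2 lies right of 0 in both.

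In HEK-293T, 1 of the 9 genes passed the test for siHNRNPH1 against siNegative, where 10.0% of the 19966 genes tested were called (5.12% higher and 4.88% lower). It was PLAT, which rose 1.49-fold, from 42.5, 43.56 and 42.63 CPM to 65.24, 64.85 and 61.8 CPM. All 3 depleted libraries were above all 3 control libraries, and replicate 1 was not apart from the others. Its log2 fold change was 0.55 ± 0.112 (SE, n = 3 per group), with edgeR's BH-adjusted p of 0.03418. The log2 fold change stayed between 0.51 and 0.58 without any 1 library, but the call did not. Here edgeR's BH-adjusted p was 0.1953, 0.1795 and 0.1926 without siNegative replicates 1, 2 and 3, 0.1091 and 0.0758 without siHNRNPH1 replicates 2 and 3, and 4.1e-11 without siHNRNPH1 replicate 1.

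SERPINE2 and SMAD7 also had siRNA groups that did not overlap in HEK-293T, which makes 3 of the 9 genes, against 43.7% of all genes. SERPINE2 was at 17.94, 16.72 and 16.88 CPM in the control libraries and at 21.37, 25.12 and 27.1 CPM after siHNRNPH1, with replicate 1 the lowest of the latter. Its log2 fold change was 0.48 ± 0.119 (edgeR's BH-adjusted p = 0.05587). SMAD7 was at 15.48, 14.87 and 14.28 CPM and at 18.65, 21.04 and 20.34 CPM (0.40 ± 0.104, BH-adjusted p = 0.06486 in edgeR). DESeq2 called both, with BH-adjusted p of 0.002774 and 0.001567, as did edgeR with the spread of all 12 libraries (0.0009686 and 0.001724). Neither passed in edgeR with no filter (BH-adjusted p of 0.167 and 0.2229) or with a replicate block (0.1971 and 0.2328). With 1 library left out, both passed in edgeR only without siHNRNPH1 replicate 1. The other such fits gave BH-adjusted p of 0.134 to 0.258 for SERPINE2 and 0.1377 to 0.3102 for SMAD7.

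For 5 of the other 6 genes, the depleted libraries of HEK-293T lay on both sides of the control libraries, and replicate 1 made the split in each of them. TGFBR1 was at 64.21, 64.69 and 64.87 CPM in the control libraries. After siHNRNPH1 it was at 45.61 CPM in replicate 1 and at 104.1 and 112.3 CPM in replicates 2 and 3. TGFBR2 was at 22.32, 22.45 and 22.62 CPM in the control libraries and at 15.81, 30.17 and 30.08 CPM after siHNRNPH1. For both receptors, replicate 1 was thus below every control library and the other replicates were above. TGFB2 had the same pattern, with 2.137, 1.867 and 1.95 CPM against 0.8805, 3.008 and 2.923 CPM. PLAUR and TGFB1 had the reverse pattern. PLAUR was at 4.483, 4.468 and 4.181 CPM against 6.385, 3.942 and 3.713 CPM, and TGFB1 at 11.1, 10.55 and 10.66 CPM against 13.42, 9.788 and 8.242 CPM. PLAU stood near 1 CPM throughout, at 1.107, 1.197 and 0.9089 CPM against 1.058, 1.126 and 0.891 CPM. The edgeR BH-adjusted p of these 6 genes ranged from 0.4785 for TGFBR1 to 0.8972 for TGFB1.

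Without replicate 1 of siHNRNPH1, 8 of the 9 genes passed in HEK-293T, 6 higher and 2 lower, where 61.8% of the 20329 genes tested were called (30.5% higher and 31.3% lower). In that fit TGFBR1 rose by a log2 fold change of 0.69, SERPINE2 by 0.55, TGFB2 by 0.52, PLAT by 0.51, SMAD7 by 0.42 and TGFBR2 by 0.37. TGFB1 fell by 0.31 and PLAUR fell by 0.25 on the log2 scale. The BH-adjusted p in edgeR ranged from 1.65e-13 for TGFBR1 to 0.01865 for PLAUR, and PLAU did not pass (BH-adjusted p = 0.5085 in edgeR). PLAUR changed sign between the fits, from 0.08 with all libraries to -0.25. Replicate 1 held 0.2969 times the mean CPM of replicates 2 and 3 for TGFB2, 0.4215 times for TGFBR1 and 0.5249 times for TGFBR2. The corresponding ratios were 0.8185 for SERPINE2, 0.9014 for SMAD7, 1.03 for PLAT, 1.049 for PLAU, 1.489 for TGFB1 and 1.668 for PLAUR. The longest IsoSeq models of the 3 genes with the lowest ratios had 5328, 6515 and 4588 bases, and that of PLAUR, with the highest, had 2083 bases. TGFB1, with 4488 bases, was above 1 all the same. The part of transcript length in these ratios was not tested.

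Whether the lines responded differently was tested with the interaction of line and siRNA over all 12 libraries. The difference passed for 4 of the 9 genes, where 19.0% of the 21276 genes tested passed (8.13% with the higher response in HT-1080 and 10.8% with the lower). PLAT moved in opposite directions, up in HEK-293T and down in HT-1080, and had the largest difference of the 9. Its interaction, HT-1080 minus HEK-293T, was -1.09 ± 0.118 on the log2 scale (edgeR's BH-adjusted p = 0.0001359). SMAD7 had an interaction of -0.76 ± 0.107 (BH-adjusted p = 0.0007414 in edgeR), with a decrease in HT-1080 and log2 fold changes of 0.40 with and 0.42 without replicate 1 in HEK-293T. PLAU had -0.76 ± 0.176 (edgeR's BH-adjusted p = 0.01173), from a decrease in HT-1080 beside a level near 1 CPM in HEK-293T. SERPINE2 was higher after siHNRNPH1 in both lines and by more in HT-1080, with an interaction of 0.44 ± 0.113 (BH-adjusted p = 0.01942 in edgeR).

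The calls for PLAT, SMAD7 and PLAU were kept without each of the 12 libraries in turn. With no filter on low counts, those for PLAU and SERPINE2 were lost (edgeR's BH-adjusted p of 0.06159 and 0.06351). That for SERPINE2 was lost without HEK-293T siNegative replicate 1 (edgeR's BH-adjusted p = 0.05189), without HT-1080 siNegative replicates 2 and 3 (0.05424 and 0.06741) and without HT-1080 siHNRNPH1 replicates 1, 2 and 3 (0.05655, 0.06442 and 0.06155). Without HEK-293T siHNRNPH1 replicate 1, 7 of the 9 genes passed, where 49.0% of the 19447 genes tested passed. TGFB1, TGFBR2 and PLAUR were added, with interactions of 0.76, 0.56 and -0.33 and edgeR's BH-adjusted p of 6.374e-07, 3.799e-05 and 0.002777. TGFBR2 also passed without HEK-293T siHNRNPH1 replicate 2 or 3 (0.03214 and 0.02946 in edgeR), and PLAUR without replicate 3 (0.03801). TGFB1 thus fell in HEK-293T and rose in HT-1080 once that library was left out, while TGFBR2 rose in both and by more in HT-1080. For TGFB2 and TGFBR1 the interactions in that fit were 0.09 and 0.06, with edgeR's BH-adjusted p of 0.5476 and 0.4803, which does not show that the lines responded alike.

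The share of a gene's counts held by each of its transcripts was compared next. In HEK-293T, limma's diffSplice test called 1 of the 8 genes with more than 1 transcript past the filter, PLAT, where 8.67% of the 13018 genes tested were called. In HT-1080 it called 3 of 9, PLAU, PLAT and TGFB2, where 19.6% of the 10752 genes tested were called. PLAT was thus the gene called in both lines. Of the 25 transcripts of the 9 genes that held at least 5% of a gene's counts in any group, 4 did not overlap between siRNA groups in HEK-293T and 10 did not in HT-1080, against 25.6% and 21.0% of all transcripts compared.

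PLAT lists 17 transcripts, and 4 of them held most of its counts. In HEK-293T control cells, ENST00000220809.9 led, with 67.79, 64.95 and 73.16% of the PLAT counts. After siHNRNPH1 it held 0.0, 28.14 and 20.32%, with replicate 1 listed at 0. The mean went from 68.6% ± 4.17 to 16.1% ± 14.5 (SD, n = 3), a difference of -52.5 percentage points with a BH-adjusted p of 0.002056 in diffSplice. Over the same libraries ENST00000429089.6 went from 0.6183, 0.4348 and 0.4057% to 42.79, 25.25 and 27.14%, so a transcript under 1% of the gene in every control library held at least 25.25% in every depleted one. Its difference was 31.2 points (BH-adjusted p = 0.02984 in diffSplice). ENST00000352041.7 went from 10.69, 12.05 and 8.92% to 29.34, 29.73 and 31.82%, without overlap. Its BH-adjusted p in diffSplice, which sets each transcript against the others of its gene, was 0.3646.

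In HT-1080 the same PLAT transcripts moved the same way and by less, from a more mixed control state. ENST00000220809.9 went from 47.25, 29.89 and 46.8% to 18.94, 22.85 and 26.98%, with control replicate 2 nearest to the depleted libraries. Its difference was -18.4 points (BH-adjusted p = 0.0158 in diffSplice). ENST00000429089.6 went from 0.0, 14 and 1.337% to 22.5, 23.64 and 17.29%, a difference of 16.0 points (BH-adjusted p = 2.343e-06 in diffSplice), and control replicate 2 was again the one nearest to the depleted libraries. ENST00000352041.7 went from 23.23, 24.91 and 25.57% to 31.6, 29.76 and 31.79%, a difference of 6.48 points that did not pass in diffSplice (BH-adjusted p = 0.3028). The exact two-sided permutation test of 3 libraries against 3 gave p = 0.1, the smallest it allows, for each of these 3 transcripts in both lines. The difference between the lines in these shares was not tested.

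At the level of the gene, the diffSplice BH-adjusted p for PLAT usage in HEK-293T was 0.003463, and that in HT-1080 was 6.563e-06. In HEK-293T it was 0.05637 without siNegative replicate 1, 0.06369 without siNegative replicate 3 and 2.6e-10 without siHNRNPH1 replicate 1, where 39.5% of the genes tested were called. It was 0.05651 where only transcripts of at least 5% of the gene were kept. In HT-1080 it stayed under the threshold without each library. In edgeR's diffSpliceDGE, used in place of limma, it was 0.0006604 in HEK-293T and 0.08585 in HT-1080. RSEM divides reads that fit several transcripts by a model, so these shares are estimates, and transcripts that differ little can trade counts.

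**Figure D3:**
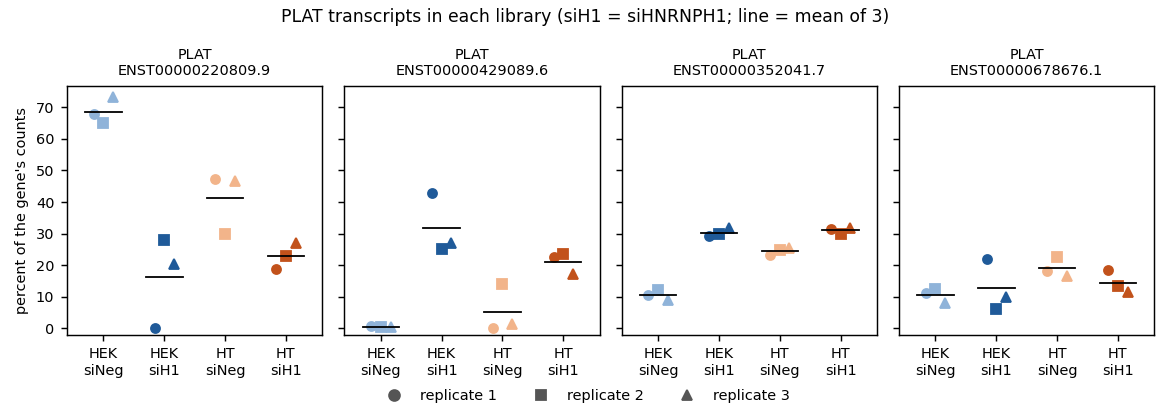
Percent of the PLAT counts held by each of 4 transcripts in the 12 short-read libraries, by cell line and siRNA, on 1 shared axis. Points are libraries, with the symbol giving the replicate, and lines are means of 3. The mean of ENST00000220809.9 falls from 68.6 to 16.1% in HEK-293T, and in HT-1080 from 41.3 to 22.9%, while ENST00000429089.6 rises from 0.486 to 31.7% and from 5.11 to 21.1%.

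PLAU in HT-1080 showed a small and even shift. Its main transcript ENST00000372764.4 held 97.99, 97.98 and 97.83% of the counts in control cells and 95.27, 94.82 and 94.73% after siHNRNPH1 (BH-adjusted p = 2.426e-09 in diffSplice). ENST00000446342.5 took up most of the difference, with 1.781, 1.756 and 1.812% against 4.148, 4.663 and 4.645% (BH-adjusted p = 6.073e-09). The siRNA groups were far apart relative to their spread, by 2.70 points against SDs of 0.0283 and 0.292. The call for the gene (BH-adjusted p = 2.083e-09 in diffSplice) was nevertheless lost without siNegative replicate 2 (0.851), for a cause that was not tested, and was 1.1e-08 in edgeR's diffSpliceDGE. In HEK-293T, with PLAU near 1 CPM, 1 of its transcripts passed the filter and no test of usage could be fitted.

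TGFB2 moved in HT-1080 towards its most abundant transcript. ENST00000366930.9 held 74.89, 72.31 and 76.19% in control cells and 81.99, 83.14 and 80.67% after siHNRNPH1 (BH-adjusted p = 0.01576 in diffSplice). ENST00000366929.4 went from 14.34, 12.21 and 12.53% to 7.054, 8.408 and 6.741% (BH-adjusted p = 0.01513). For both, every depleted library lay outside the control range. The BH-adjusted p of the gene was 0.006691 in diffSplice and 0.685 in diffSpliceDGE. In HEK-293T the shares of both TGFB2 transcripts overlapped between siRNA groups, with a BH-adjusted p of 0.8751 for the gene in diffSplice at gene levels of 0.8805 to 3.008 CPM.

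**Figure D4:**
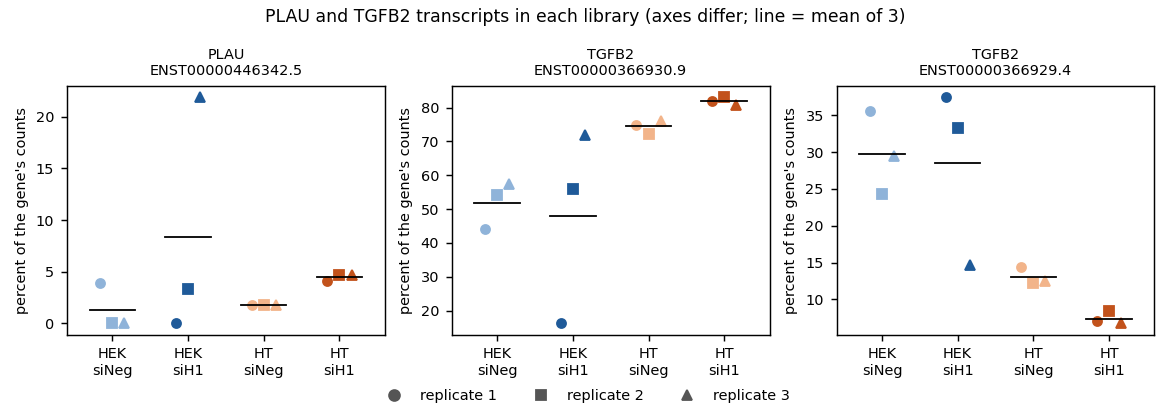
Percent of the gene's counts held by 1 PLAU and 2 TGFB2 transcripts in the 12 short-read libraries, by cell line and siRNA, with axes that differ between panels and do not start at 0. Points are libraries, with the symbol giving the replicate, and lines are means of 3. In HT-1080 the siRNA groups separate in all 3 panels, from 1.78 to 4.49%, from 74.5 to 81.9% and from 13.02 to 7.40%, and in HEK-293T, where both genes are low, the libraries scatter.

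The other 6 genes had no call for transcript usage in either line. TGFB1 kept 96.6% ± 0.301 of its counts in ENST00000221930.6 in HT-1080 control cells and 95.7% ± 1.94 after siHNRNPH1. TGFBR1 had 93.1% ± 3.13 and 96.4% ± 1.97 in ENST00000374994.9 there, with a BH-adjusted p for the gene of 0.08518 in diffSplice that became 0.04026 without siHNRNPH1 replicate 1. The changes in the level of TGFB1 and TGFBR1 in HT-1080 thus lay mostly in 1 transcript each. SERPINE2 had 71.1% ± 9.09 and 73.1% ± 4.01 in ENST00000409304.6, TGFBR2 67.9% ± 3.89 and 67.6% ± 1.38 in ENST00000295754.10, and SMAD7 56.6% ± 7.80 and 56.9% ± 3.18 in ENST00000262158.8. PLAUR had 84.8% ± 0.712 and 82.9% ± 0.519 in ENST00000340093.8, without overlap, and its BH-adjusted p was 0.1282 in diffSplice and 0.01381 where only transcripts of at least 5% were kept.

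The IsoSeq pools list transcript models and no reads, with 1 pool per group, so they carry no test, and a model counts once whatever its abundance. The files listed 64705 and 94847 models in the HEK-293T siNegative and siHNRNPH1 pools and 72186 and 68078 in those of HT-1080. Urokinase had 0 models in both HEK-293T pools and 36 and 34 in those of HT-1080. PLAT had 3 and 11 models in HEK-293T and 20 and 13 in HT-1080, TGFB2 3 and 4 against 27 and 37, and TGFB1 0 and 0 against 9 and 8. SMAD7 was listed in 1 pool, HEK-293T siHNRNPH1, with 2 models.

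Of the 9 genes, PLAT, TGFB2 and TGFBR2 had cassette exons, that is internal exons that some models of a pool carry and others skip. Only junctions between exons that were in at least 2 models and 10% of the spanning models of a pool were considered. Rarer skipped exons were not looked for, and junctions outside cassette exons were counted but not sorted into kinds of splice difference. In HT-1080, the PLAU junction over the intron chr10:73911613-73912040 was in 21 of 27 spanning siNegative models. In siHNRNPH1 it was in 13 of 26. The exact Clopper-Pearson 95% intervals, 57.7 to 91.4% and 29.9 to 70.1%, overlap. The shares of other PLAU junctions moved either way. Positions are those of the files, for which the submitters' processing notes name GRCh38.p13. A PLAT exon of 52 bases at chr8:42206647-42206698, between the first exon and the next of the longer models and not a multiple of 3, was in 0 of 3 models of HEK-293T siNegative and in 5 of 10 of siHNRNPH1. In HT-1080 it was in 2 of 13 and in 4 of 8. The shares were 15.4% (exact Clopper-Pearson 95% interval 1.9 to 45.4) and 50% (15.7 to 84.3) in HT-1080, and the intervals overlap. A second PLAT exon of 138 bases at chr8:42188934-42189071, a multiple of 3, was in 2 of 3 and 6 of 10 models in HEK-293T and in 11 of 13 and 4 of 8 in HT-1080. In both lines the share was thus higher after siHNRNPH1 for the exon of 52 bases and lower for that of 138 bases, at counts too small to tell from the sampling of models. The TGFB2 exon of 84 bases at chr1:218363334-218363417 was in 0 of 3 and 0 of 4 models in HEK-293T and in 4 of 23 and 5 of 29 in HT-1080. The TGFBR2 exon of 75 bases at chr3:30623199-30623273 was in 2 of 5 and 2 of 7 models in HT-1080 and in 0 of 1 in the HEK-293T siHNRNPH1 pool. Which of the listed transcripts carry these exons was not analysed here.

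The members of 5 wider lists were counted in the same fits, each list holding some of the 9 genes. The counts and medians include these genes, so they partly repeat the results above. In HT-1080, 5 of the 15 tested genes of the plasminogen system rose, 9 fell and 1 was not called, where 65.3% of all genes were called (32.7% higher and 32.6% lower). The median log2 fold change of the list was -0.46, against 0.01 over all genes. S100A10, which with annexin A2 binds plasminogen at the cell surface, fell from 283.1 ± 26.4 to 168.6 ± 7.43 CPM (-0.82 ± 0.071, edgeR's BH-adjusted p = 5.609e-06).

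Of the 13 tested TGF-beta ligands and activators in HT-1080, 8 rose, 4 fell and 1 was not called (median 0.50), beside 32.7% of all genes higher and 32.6% lower. THBS1, thrombospondin 1, which can activate latent TGF-beta, rose from 176.4 ± 16.8 to 803.0 ± 20.0 CPM (2.12 ± 0.067, edgeR's BH-adjusted p = 1.057e-08). NRROS, which tethers latent TGF-beta, fell (-0.99 ± 0.106, BH-adjusted p = 2.459e-05 in edgeR). Of the 6 receptors tested, 4 rose, none fell and 2 were not called (median 0.33), with TGFBR2 the highest. Of the 19 SMADs and regulators, 6 rose, 6 fell and 7 were not called (median -0.04), a share called that is near the 65.3% of all genes.

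Among 24 known TGF-beta target genes tested in HT-1080, 10 rose and 10 fell, with a median of 0.04, beside 32.7% of all genes higher and 32.6% lower. PMEPA1, a target that inhibits SMAD signalling, rose from 107.3 ± 0.567 to 321.9 ± 7.79 CPM (1.52 ± 0.041, edgeR's BH-adjusted p = 6.391e-09). TAGLN, a smooth muscle actin-binding protein, rose from 0.974 to 3.43 CPM (1.73 ± 0.161, BH-adjusted p = 9.24e-06 in edgeR), and TPM1, a tropomyosin, fell (-0.81 ± 0.039, BH-adjusted p = 1.258e-07 in edgeR). Outside the target list, among the SMADs and regulators, SMURF2 fell (-0.72 ± 0.062, edgeR's BH-adjusted p = 6.012e-06). It is a ubiquitin ligase that works with SMAD7 on the receptors.

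In HEK-293T, 10.0% of all genes were called (5.12% higher and 4.88% lower), and the lists gave few calls. Of 12 tested genes of the plasminogen system, 2 rose and 10 were not called. None of 14 ligands and activators and none of 6 receptors passed, 1 of 19 SMADs and regulators rose, and of 24 target genes 4 rose, 1 fell and 19 were not called. PMEPA1 rose here too, from 3.73 ± 0.318 to 11.1 ± 0.315 CPM (1.55 ± 0.126, edgeR's BH-adjusted p = 0.005621), with an interaction between the lines of -0.11 ± 0.128 (BH-adjusted p = 0.6303 in edgeR). The target that fell was CCN2, a matricellular protein, from 1.99 ± 0.130 to 1.00 ± 0.033 CPM (-1.02 ± 0.138, BH-adjusted p = 0.01277 in edgeR). It also fell in HT-1080, from 77.9 ± 3.45 to 47.5 ± 1.58 CPM (-0.78 ± 0.051, edgeR's BH-adjusted p = 7.726e-07). Without siHNRNPH1 replicate 1, in the fit that called 61.8% of all genes, 5 of 6 receptors rose and none fell. Of 19 SMADs and regulators, 14 rose and 2 fell. The medians of these lists were 0.31 and 0.22, against a median of all genes that rounds to 0. Of the ligands and activators 4 rose and 4 fell, of the plasminogen system 6 rose and 3 fell, and of the target genes 13 rose and 7 fell. In control cells, 13 of 14 genes of the plasminogen system and 22 of 26 target genes were higher in HT-1080, where 86.6% of all genes differed and 40.8% were higher.

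**Figure D5:**
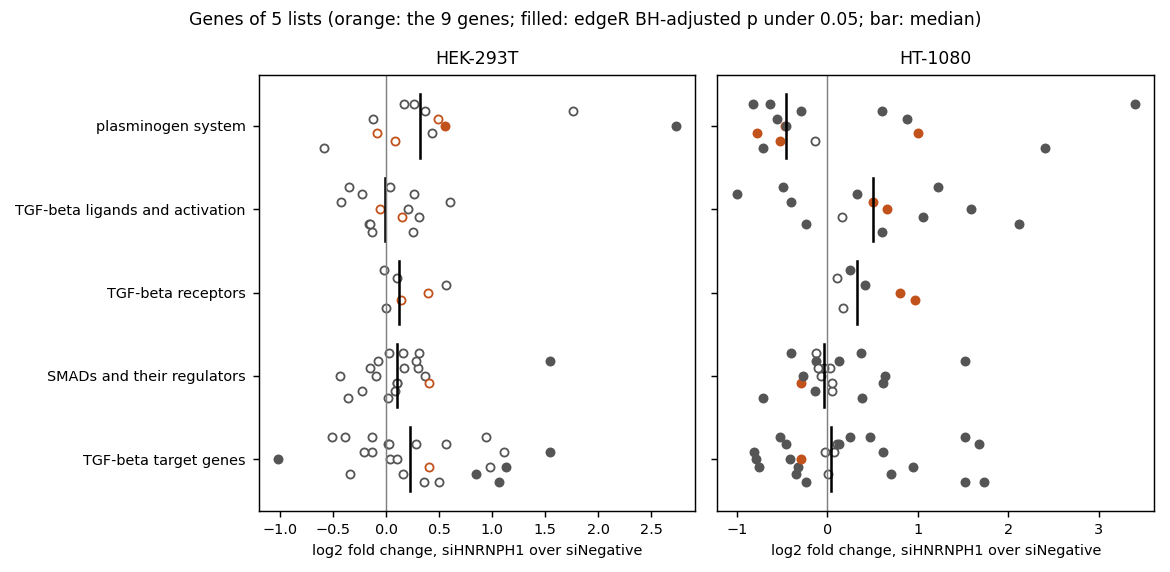
Log2 fold change of siHNRNPH1 over siNegative for the tested genes of 5 lists in HEK-293T and HT-1080, with axes that differ. Orange points are the 9 genes, filled points have an edgeR BH-adjusted p under 0.05, and bars are medians of the list. In HT-1080 the median is -0.46 for the plasminogen system and 0.50 for the TGF-beta ligands and activators.

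For each of the 9 genes, the pair of genes most like it was taken by Pearson's r of log2(CPM + 1), centred within each line, over the 12 libraries and 12172 genes. The libraries share groups, so these values are descriptions. The closest genes were CDC42EP2 and HK1 for PLAU (0.989 and 0.987), KHDRBS3 and MORF4L1 for PLAT (0.993 and 0.99), MVD and ZNF511 for PLAUR (0.997 and 0.994), and RMDN2 and SETD6 for SERPINE2 (0.996 and 0.993). They were SGSM3 and GTF3C2-AS2 for TGFB1 (0.993 and 0.989), MAP3K9 and TIAM1 for TGFB2 (0.997 and 0.995), CAPN7 and ERCC6 for TGFBR1 (0.999 and 0.998), CUX1 and EPAS1 for TGFBR2 (0.998 and 0.998), and NAA50 and SLC35F2 for SMAD7 (0.984 and 0.98). None of the 9 was among the closest genes of another. Without HEK-293T siHNRNPH1 replicate 1, at least 1 of the closest genes was another for each of the 9, and both were for TGFB1 (SDC1 and NKILA) and TGFBR2 (IGF1R and JMY).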

How the data were processed

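The authors deposited expected counts per transcript, 1 table per cell line, made with RSEM per the submitters' processing notes, which also name GRCh38.p13. The aligner, annotation release and strandedness are not given in the sources used here. Columns were matched to samples by the names that the labels give, and 0 were left unmatched. The IsoSeq files hold exon positions of models and no counts.

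Expected counts were summed per gene identifier, rounded, filtered with filterByExpr, scaled by TMM and tested with edgeR 4.0.16 (quasi-likelihood, robust, two-sided). Each line, the siNegative libraries, and all 12 libraries for the interaction were fitted separately. P-values were Benjamini-Hochberg (BH) adjusted over all genes tested, with a threshold of 0.05. Transcript usage was tested with voom and diffSplice in limma 3.58.1 (Simes p per gene). DESeq2 1.42.0, edgeR's diffSpliceDGE, other scalings, no filter, a replicate block and each library left out were alternatives. Both tests were checked on simulated data with the same spread for all genes and no deviating library. That check therefore does not cover a group such as HEK-293T siHNRNPH1. Positions come from RefSeq (GRCh38.p14), whose gene table and the table of gene names matched all 9 genes.

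Named genes are the 9 members, HNRNPH1, the called gene with the largest change per list, line and direction with a mean count of at least 50, and the 2 genes most similar to each member. Members and lists were chosen with earlier results of these data known. Depth was 107.75 to 121.03 M in HEK-293T and 27.3 to 32.65 M in HT-1080. Intervals cover counting error only. The values of 1 gene of the lists are not reported here.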

Additional observations from a re-analysis of the deposited data

Results flagged for a closer look

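The response to siHNRNPH1 differed between the lines for 4 of the 9 genes by edgeR's interaction test, where 19.0% of the 21276 genes tested passed. Values are given as HT-1080 minus HEK-293T on the log2 scale. For PLAT the difference was -1.09 (BH-adjusted p = 0.0001359), with an increase in HEK-293T and a decrease in HT-1080. For SMAD7 it was -0.76 (edgeR's BH-adjusted p = 0.0007414) and for PLAU -0.76 (edgeR's BH-adjusted p = 0.01173). For SERPINE2 it was 0.44 (edgeR's BH-adjusted p = 0.01942), a call that was lost without any 1 of 6 libraries. With no filter on low counts, PLAU and SERPINE2 missed the threshold (edgeR's BH-adjusted p of 0.06159 and 0.06351). Without HEK-293T siHNRNPH1 replicate 1 the 4 values were -1.02, -0.76, -0.69 and 0.40, with edgeR's BH-adjusted p from 3.798e-10 to 0.0003199.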

How the results depend on the processing

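In HEK-293T, the calls depended on the tool and on single libraries. The 1997 genes called became 1302 with no filter, 3982 with DESeq2 and 4551 with the spread of all 12 libraries, and 0 to 12557 when 1 library was left out. The count of 0 came in edgeR without siNegative replicate 2 or 3, with 3517 and 3486 genes at an unadjusted p under 0.05, and 12557 came without siHNRNPH1 replicate 1. The 1 member called became 0 with no filter, 3 with DESeq2, 3 with all 12 libraries, and 0 to 8 with 1 library left out. In HT-1080, all 12 libraries gave 6237 called genes in place of 10538. The 4034 interaction genes became 2776 to 9535 with 1 library left out, and the 4 members 2 with no filter and 3 to 7 with 1 library left out. Usage calls in HEK-293T went from 1129 to 717 with transcripts of at least 5%, to 666 with diffSpliceDGE and to 308 to 5295 with 1 library left out, and the 1 member to 0 with transcripts of at least 5% and to 0 to 1. Those in HT-1080 went from 2112 to 551 with diffSpliceDGE and to 1376 to 2019 with 1 library left out, and the 3 members to 1 with diffSpliceDGE and to 2 to 4. The cause of these changes was not tested.

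Some HEK-293T log2 fold changes near 0 changed sign. With 1 library left out, PLAU ranged from -0.20 to 0.0093, PLAUR from -0.25 to 0.23, TGFB1 from -0.31 to 0.10 and TGFB2 from -0.092 to 0.52, and with all 12 libraries TGFB1 was 0.014. PLAU was above 0 without siHNRNPH1 replicate 3 (0.0093) or siNegative replicate 2 (0.0014). No other log2 fold change of the 9 genes changed sign under any alternative run, and all 9 calls of the control comparison were kept. Library size alone moved the median of all genes from -0.10 to -0.36 in the control comparison.

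Same-numbered libraries deviated together weakly (r of 0.1, 0.11 and 0.03 in HEK-293T and 0.04, 0.13 and 0.06 in HT-1080). All of these were positive. For different numbers, r was mostly negative, with extremes of -0.1 and 0.07 for HEK-293T, and of -0.13 and 0.07 for HT-1080. Deviations were taken from the group means, so positive values for the same number force negative ones on the whole for different numbers. The latter are therefore no separate sign of pairs. The values for the same number lean towards pairs but are too small to settle the question. The main fits did not take the numbers as pairs. A replicate block left 0 genes and 0 members called in HEK-293T (4169 genes at an unadjusted p under 0.05 in edgeR), 10504 genes and 9 members in HT-1080, 2535 genes and 3 members in the interaction, where SERPINE2 was lost (edgeR's BH-adjusted p = 0.09411), and 906 and 2145 genes in the usage tests of HEK-293T and HT-1080. Depth limits PLAU in HEK-293T, near 1 CPM, and the IsoSeq shares, which rest on 1 to 29 models.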
